A study of Canis lupus familiaris with 24 samples.

Results

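Of the 53 genes listed as mitosis and chromosome segregation genes, 49 were found by symbol in the gene count table of 32704 dog genes, and CENPF, MAD2L1, CCNB1 and PTTG1 were not analysed here. The list is given by name, and all 49 genes found were among the 12466 genes that passed the filter on low counts. RNA came from MDCK cells, an epithelial cell line from dog kidney, and was sequenced as 24 stranded mRNA libraries, 3 in each of 8 groups. For the MDCK-II subline there were untreated cells of day 0 and of day 4, and cells of day 4 that had received TGFb, the growth factor used to start epithelial-mesenchymal transition (EMT). The MDCK-NBL2 subline had the same 3 groups. A further pair of MDCK-NBL2 groups received TGFb together with siRNA, either the control siCTR or siPRRX1, which targets the transcription factor PRRX1. By the labels, cells without TGFb are epithelial. Partial EMT is the label of MDCK-II with TGFb and of the siPRRX1 group, and full EMT that of MDCK-NBL2 with TGFb alone or with siCTR. No group had siRNA without TGFb, and the labels do not say whether the numbered replicates were separate cultures, so the p-values measure only the spread between these libraries.

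In a dividing cell, CDK1 with its cyclins starts mitosis, condensins compact the chromosomes, kinetochores tie them to the spindle, and the spindle checkpoint holds the anaphase ubiquitin ligase until every chromosome is attached. Separase then cuts cohesin, and a ring of contractile proteins divides the cell. Most of these genes are transcribed mainly around G2 and mitosis, through FOXM1 and the MYB-MuvB complex, so in bulk RNA their levels are widely used as a sign of how many cells in a culture are dividing. Roles named here are those known from human and mouse cells. In bulk libraries, fewer dividing cells and less RNA per cell cannot be told apart.

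Libraries held between 6134929 and 27567296 counts. The kidney epithelial list had 5 of its 7 markers in the table, with a summed level of 1020 to 2800 CPM (counts divided by the library's size and multiplied by 1000000) over all groups, where library sizes were scaled by edgeR's TMM method. Its marker CDH16 was at 0 in all 9 TGFb-treated MDCK-NBL2 libraries, siRNA groups included. The 5 fibroblast markers summed to between 0.629 and 48 CPM, most of it PDGFRA, while PDGFRB, DCN or LUM were at 0 in 7 of the 8 groups. In MDCK-II that sum ran from 13.4 to 48 CPM with TGFb and from 0.808 to 7.42 CPM untreated at day 4. In MDCK-NBL2 it ran from 9.62 to 23.8 CPM with TGFb and from 2.52 to 29.2 CPM untreated at day 4. The part of these markers in the results below was not tested. PTPRC, the common leukocyte marker, was at 0 in every TGFb-treated group and in all MDCK-II groups. The 4 leukocyte markers in the table still summed to between 0.918 and 12.5 CPM, highest in a siPRRX1 library. The 5 endothelial markers summed to between 0.959 and 9.6 CPM, highest in a TGFb-treated MDCK-II library. Their part in the results was not tested either.

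Replicate 2 of the libraries labelled as untreated MDCK-NBL2 of day 4 went against its label. TGFBI, a gene induced by TGFb, stood at 1580 CPM there, against 0.325 and 0.229 CPM in replicates 1 and 3 of that group and a mean of 8270 CPM in the treated group. All 49 mitosis genes were lowest in that library within its group. Their median level there was 24.9% of replicate 1 and 10.1% of replicate 3, and 2.07-fold the mean of the treated group. It is called the discordant library below, and the counts of called genes over the 49 are given with and without it. MDCK-NBL2 day 0 replicate 1 also stood somewhat apart, with TGFBI at 55.6 CPM against 2.84 and 3.1 CPM, and it was the lowest of its group for 45 of the 49 genes. PRRX1, the siRNA target, was at 33.9, 7.35 and 3.88 CPM with siCTR and at 1.11, 0.339 and 0 CPM with siPRRX1, so the groups did not overlap.

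Together the 49 genes took 0.804% ± 0.0662 (SD, n = 3) of all counts in MDCK-II at day 0 and 0.849% ± 0.127 (SD, n = 3) in MDCK-NBL2 at day 0. In MDCK-II the share was 0.57% ± 0.13 (SD, n = 3) untreated at day 4 and 0.244% ± 0.0335 (SD, n = 3) with TGFb, or 70.9% and 30.3% of the day 0 mean. In MDCK-NBL2 it was 0.432% ± 0.365 (SD, n = 3) untreated at day 4 and 0.0577% ± 0.0164 (SD, n = 3) with TGFb, or 50.9% and 6.8% of the day 0 mean. TGFb-treated libraries were below every untreated library of the same line. With siCTR the share was 0.0646% ± 0.0131 (SD, n = 3) and with siPRRX1 0.0468% ± 0.008 (SD, n = 3). Every siPRRX1 library was below all siCTR libraries, but narrowly, at 0.056% in siPRRX1 replicate 2 against 0.057% in siCTR replicates 2 and 3. CDC25B alone made up 7.6% and 6.26% of the summed CPM of the 49 genes in those siCTR libraries, and 2.56% in siPRRX1 replicate 2. With CDC25B taken out by these percentages, siPRRX1 replicate 2 would lie above siCTR replicates 2 and 3 in the share of counts. The separation in that share thus rests on CDC25B. In summed CPM, where library sizes are scaled, it was at 578.6 against 655.7 and 664.6 CPM, and would stay below them without CDC25B.

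**Figure D1:**
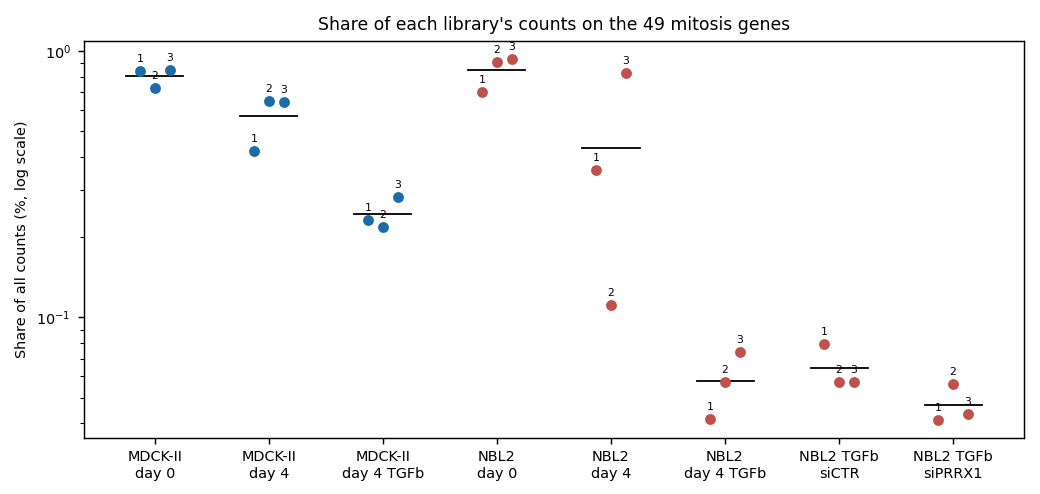
Share of each library's counts that fell on the 49 mitosis genes (vertical axis, percent, log scale) by group (horizontal axis); each point is 1 library, the number is its replicate, bars are group means, blue is MDCK-II and red MDCK-NBL2. The TGFb-treated MDCK-II libraries lie between 0.219% and 0.282%, the TGFb-treated MDCK-NBL2 libraries between 0.0416% and 0.0743%, and untreated MDCK-NBL2 at day 4 is spread from 0.111% to 0.829%.

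The genes moved together across the libraries. For each gene, the Pearson correlation of its log2 CPM with the median profile of the other members over the 24 libraries had a median of 0.987 and was at least 0.95 for 46 of the 49. All points share the libraries and the treatment, so these are descriptions. Among genes outside the list, KIF14 at 0.996, KIF15 at 0.995 and KNTC1 at 0.995 were most like the members' median profile, and GTF3C1 at -0.983 and PAM at -0.98 were most opposed. The 3 least alike members were CDC25B at 0.733, UBE2C at 0.946 and INCENP at 0.949.

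**Figure D2:**
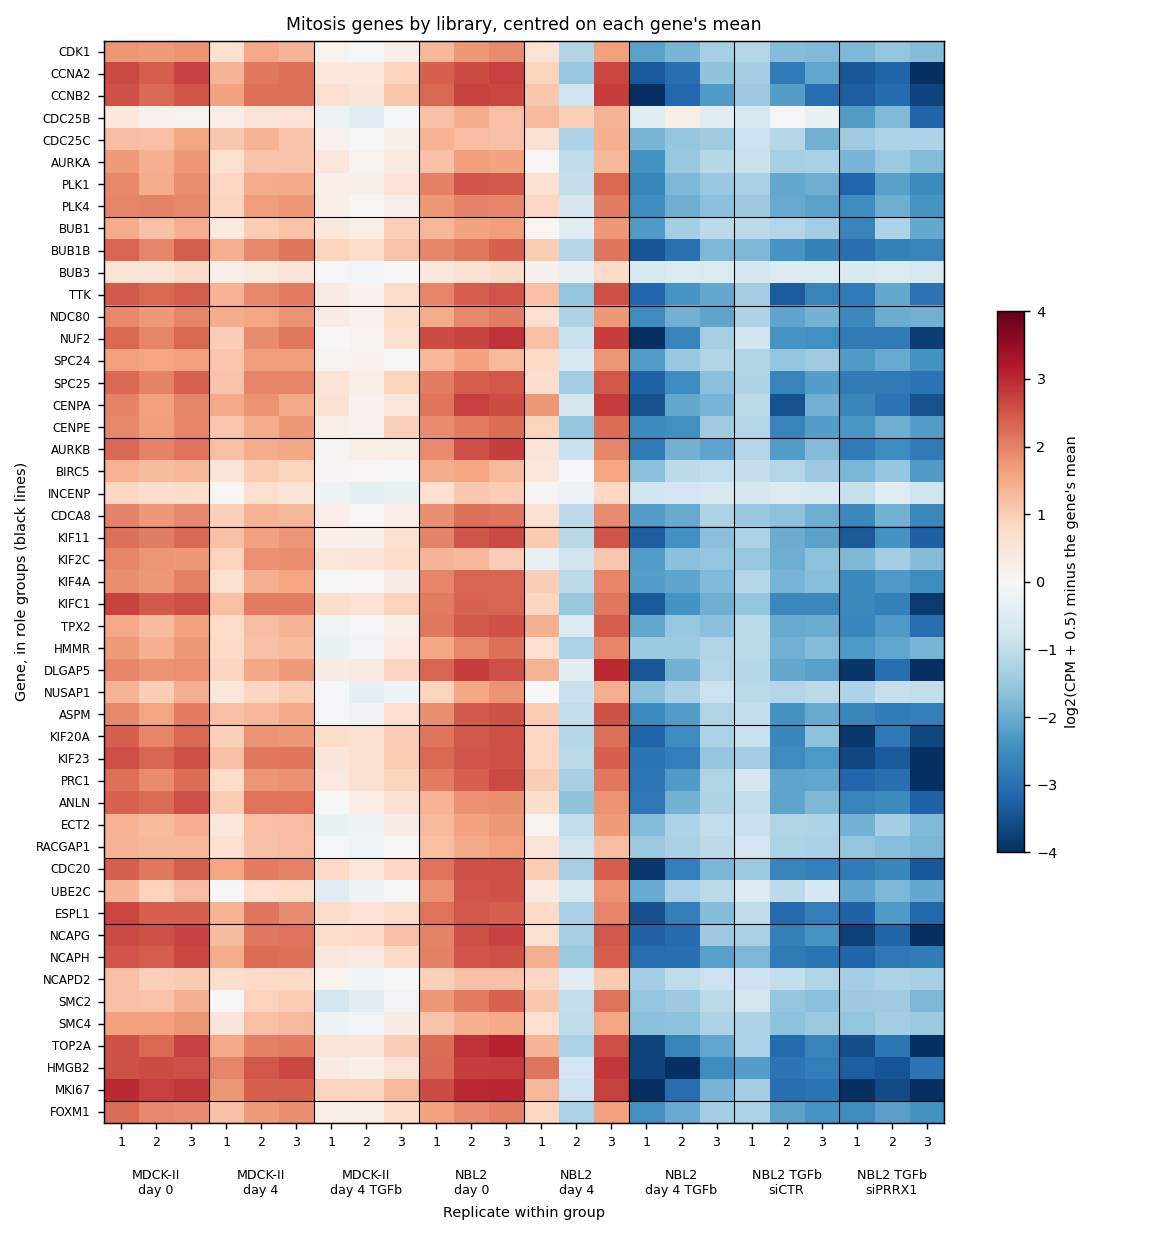
Level of each of the 49 genes (rows, grouped by role) in each of the 24 libraries (columns, by group and replicate), as log2(CPM + 0.5) minus the gene's mean over all libraries; red is above and blue below that mean. Rows run largely in parallel, the TGFb-treated MDCK-NBL2 libraries are lowest, untreated MDCK-NBL2 day 4 replicate 2 is blue within an otherwise red or pale group, and CDC25B is lowest with siPRRX1.

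TGFb in MDCK-II was followed by lower levels of the mitosis genes at day 4. Against untreated cells at day 4, all 49 had a log2 fold change below 0, with a median of -1.12 against -0.03 over all genes tested. By edgeR's quasi-likelihood test, with a Benjamini-Hochberg adjusted p under 0.05 over all genes as the threshold, 8 fell and 0 rose, where 9.27% of all genes tested fell. The 8 were PLK4, SPC24, INCENP, KIF2C, ANLN, RACGAP1, NCAPD2 and HMGB2. With the discordant library left out, which is in neither group but enters the shared estimate of spread, 41 fell, where 14.6% of all genes fell. The treated libraries lay below all untreated ones for 45 of the 49, a pattern seen in 19.5% of all genes. Replicate numbers are shared between these groups, but the labels do not say what they mark, and the main fit has no block. With the replicate as a block 14 fell in the fit of all libraries, where 10.1% of all genes fell. In a blocked fit of these 6 libraries alone 48 fell, where 12.7% of all genes fell. Leaving out treated replicate 2 or untreated replicate 2 left 2 calls each, with median log2 fold changes of -1.04 and -1.02. No share of all genes was taken there, so this loss of calls cannot be read as particular to these genes.

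In MDCK-NBL2, all 49 genes fell with TGFb against untreated day 4, with and without the discordant library. The median log2 fold change was -3.26 with it and -3.73 without it, and 23.4% and 27.7% of all genes fell. Treated libraries lay below all untreated ones for 44 of the 49, a pattern seen in 21.0% of all genes. In a fit of these 6 libraries alone, 2 of the 48 genes tested fell, where 2.42% of all genes fell, with a median log2 fold change of -3.32.

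**Figure D3:**
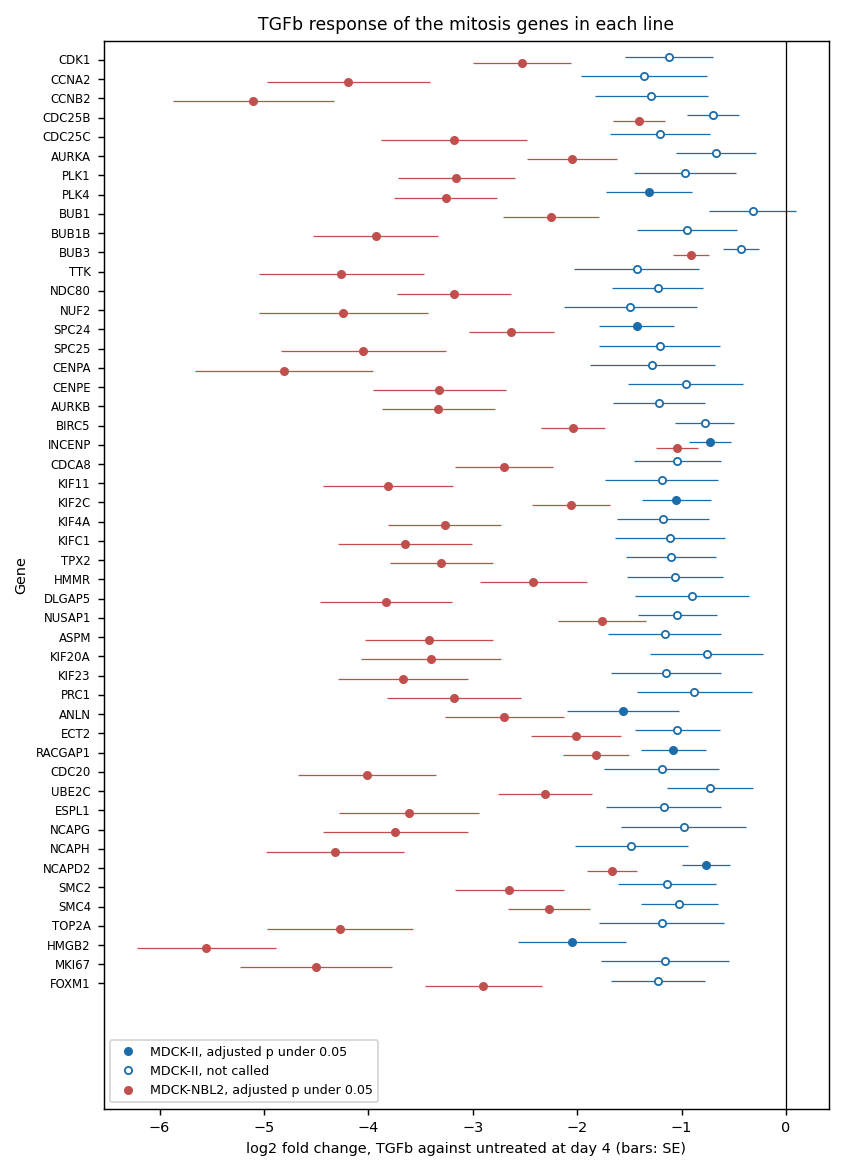
Log2 fold change of each of the 49 genes with TGFb against untreated cells at day 4 (horizontal axis, bars are SE), in MDCK-II (blue) and MDCK-NBL2 (red), from the fit of all 24 libraries; filled points have an adjusted p under 0.05 and open points do not. Every point lies below 0, each gene's MDCK-NBL2 point lies left of its MDCK-II point, and HMGB2 lies farthest left, at -5.55.

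The fitted response to TGFb was larger in MDCK-NBL2 for every gene, and the difference passed the test for CCNB2, BUB1B, TPX2, DLGAP5, NCAPH, TOP2A, HMGB2 and MKI67. The difference of the log2 fold changes (MDCK-NBL2 minus MDCK-II) was below 0 for all 49 genes, with a median of -2.12 against -0.05 over all genes. These are 8 genes with every library, where 3.18% of all genes had a lower response in MDCK-NBL2, and 46 passed without the discordant library, where 11.2% did. Without that library, CDC25B, INCENP and NUSAP1 did not pass. The 5 libraries with later library numbers are all TGFb-treated MDCK-NBL2, and with that number series as a term 4 genes passed, where 2.9% of all genes did, with a median difference of -2.01. The median was -1.13 without untreated MDCK-NBL2 replicate 3. No gene passed when treated MDCK-NBL2 replicate 1 or replicate 2 was left out, with medians of -1.95 and -2.13, and 0 passed in a fit of the 4 groups alone, with a median of -2.19.

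Among the cyclins and mitotic kinases, CDK1, the kinase that starts mitosis, was at 51.6, 96.5 and 86.6 CPM in untreated MDCK-II at day 4 and at 37, 32.3 and 39.1 CPM with TGFb, in the order of replicates 1, 2 and 3. The MDCK-NBL2 levels were 50, 14.1 and 106 CPM untreated and 7.1, 8.89 and 13.1 CPM with TGFb. The treated groups lay below the untreated ones in both lines, with a narrow gap in MDCK-NBL2 to replicate 2. The log2 fold change was -1.12 (SE 0.42, adjusted p = 0.063) in MDCK-II, and -1.12 (SE 0.26, adjusted p = 0.0028) without the discordant library. In MDCK-NBL2 CDK1 fell by 2.53 on the log2 scale (SE 0.47, adjusted p = 0.00036). The difference between the lines was -1.41 (SE 0.62, adjusted p = 0.18), and -1.87 (SE 0.4, adjusted p = 0.003) without that library.

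CCNB2, a cyclin partner of CDK1, fell further in MDCK-NBL2. It was at 36, 54.5 and 53.9 CPM untreated and 18, 16.3 and 25 CPM treated in MDCK-II. Levels in MDCK-NBL2 were 24.5, 6.28 and 79.6 CPM untreated and 0.192, 0.853 and 1.95 CPM treated, so the groups did not overlap in either line. The treated values rest on 1, 7 and 13 counts. CCNB2 fell by 5.10 on the log2 scale (SE 0.77, adjusted p = 8.1e-05) in MDCK-NBL2, against -1.29 (SE 0.54, adjusted p = 0.091) in MDCK-II, and the difference of -3.81 (SE 0.96, adjusted p = 0.027) passed. PLK4, the kinase that starts centriole duplication, passed in both lines. Its levels were 28.7, 49 and 51.1 CPM untreated and 17.8, 16.1 and 18.2 CPM treated in MDCK-II. They were 27.3, 9.28 and 64.4 CPM untreated and 2.3, 3.53 and 4.36 CPM treated in MDCK-NBL2. The treated libraries were lower in both lines, by 1.31 on the log2 scale (SE 0.41, adjusted p = 0.029) in MDCK-II and by 3.26 on the log2 scale (SE 0.49, adjusted p = 7.8e-05) in MDCK-NBL2.

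The 4 spindle checkpoint genes all fell in MDCK-NBL2, while 0 passed in MDCK-II with every library and 3 without the discordant library. BUB1B, the checkpoint kinase-like protein BubR1, was at 60.3, 83.4 and 97.6 CPM untreated and 41, 36.3 and 48.2 CPM with TGFb in MDCK-II. The values in MDCK-NBL2 were 44.2, 9.61 and 98.1 CPM untreated and 1.53, 2.31 and 5.86 CPM with TGFb. Treated libraries were lower without overlap in both lines. The log2 fold change was -0.95 (SE 0.48, adjusted p = 0.17) in MDCK-II, BUB1B fell by 3.93 on the log2 scale (SE 0.6, adjusted p = 9.2e-05) in MDCK-NBL2, and the difference of -2.98 (SE 0.76, adjusted p = 0.029) passed. BUB3, which carries the checkpoint kinases to kinetochores, had the smallest response of the 49 in MDCK-NBL2. It was at 142, 101 and 215 CPM untreated and 78.3, 83.3 and 81.6 CPM with TGFb, a fall of 0.91 on the log2 scale (SE 0.17, adjusted p = 0.00049). In MDCK-II it was at 145, 161 and 174 CPM untreated and 119, 115 and 123 CPM with TGFb, with a log2 fold change of -0.43 (SE 0.17, adjusted p = 0.082), and without the discordant library -0.43 (SE 0.12, adjusted p = 0.013). BUB1 had the smallest response in MDCK-II, with a log2 fold change of -0.32, and passed in neither fit there.

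Kinetochore genes fell together in MDCK-NBL2, 6 of 6 passing with log2 fold changes from -4.81 to -2.63. NDC80 and SPC24 are subunits of the complex that binds spindle microtubules. SPC24 was at 27.9, 41.1 and 41.1 CPM untreated and 14, 14.3 and 12.6 CPM with TGFb in MDCK-II. Among MDCK-NBL2 libraries the levels were 22, 8.13 and 43.4 CPM untreated and 2.3, 4.02 and 5.11 CPM with TGFb. Both treated groups lay below the untreated ones, and SPC24 fell by 1.43 on the log2 scale (SE 0.36, adjusted p = 0.0095) in MDCK-II and by 2.63 on the log2 scale (SE 0.41, adjusted p = 0.00011) in MDCK-NBL2. NDC80 was at 34.7, 37.4 and 43.4 CPM untreated and 15.2, 13.8 and 20.6 CPM with TGFb in MDCK-II. MDCK-NBL2 libraries had 19.3, 4.77 and 41.6 CPM untreated and 1.73, 2.8 and 2.4 CPM with TGFb. It did not overlap between groups in either line, fell by 3.18 on the log2 scale (SE 0.55, adjusted p = 0.00021) in MDCK-NBL2, and had a log2 fold change of -1.23 (SE 0.44, adjusted p = 0.052) in MDCK-II.

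The chromosomal passenger complex, which corrects faulty attachments and later marks the cleavage plane, consists of the kinase AURKB with INCENP, BIRC5 and CDCA8. AURKB was at 32.5, 39.6 and 42 CPM untreated and 15.1, 16.9 and 17 CPM with TGFb in MDCK-II. In MDCK-NBL2 it was at 20.2, 7.28 and 55.9 CPM untreated and 1.53, 3.41 and 2.86 CPM with TGFb. AURKB fell by 3.33 on the log2 scale (SE 0.54, adjusted p = 0.00014) in MDCK-NBL2, and its log2 fold change was -1.22 (SE 0.44, adjusted p = 0.053) in MDCK-II. BIRC5 was at 32.1, 45.5 and 41.8 CPM untreated and 24.2, 22.8 and 22.4 CPM with TGFb in MDCK-II. The MDCK-NBL2 levels were 30.7, 21.4 and 67.1 CPM untreated and 6.71, 10.5 and 11.1 CPM with TGFb, a fall of 2.04 on the log2 scale (SE 0.31, adjusted p = 8.2e-05). INCENP, the scaffold of the complex, fell in both lines. It was at 146, 221 and 201 CPM untreated and 120, 107 and 115 CPM with TGFb in MDCK-II. Levels in MDCK-NBL2 were 149, 117 and 243 CPM untreated and 78.1, 81.2 and 87.2 CPM with TGFb. No library overlapped, and INCENP fell by 0.73 on the log2 scale (SE 0.2, adjusted p = 0.014) and by 1.04 on the log2 scale (SE 0.2, adjusted p = 0.00048), with a difference of -0.31 (SE 0.28, adjusted p = 0.56) that did not pass. The groups did not overlap for AURKB or BIRC5 either.

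Of the 9 spindle motors and microtubule proteins, 9 fell in MDCK-NBL2 and KIF2C passed in MDCK-II with every library, against 8 of 9 without the discordant library. KIF2C, a kinesin that takes microtubules apart at centromeres, was at 47.4, 89.2 and 91.3 CPM untreated and 34, 34.9 and 41.4 CPM with TGFb in MDCK-II. The values in MDCK-NBL2 were 20.1, 14 and 52.4 CPM untreated and 4.8, 7.43 and 7.82 CPM with TGFb. The treated groups lay below the untreated ones, with falls of 1.05 on the log2 scale (SE 0.33, adjusted p = 0.03) and of 2.06 on the log2 scale (SE 0.37, adjusted p = 0.00032). TPX2, which activates AURKA on the spindle, was at 60.5, 84.5 and 92.7 CPM untreated and 32.9, 34.5 and 43.6 CPM with TGFb in MDCK-II. Among MDCK-NBL2 libraries the levels were 97.8, 24.7 and 194 CPM untreated and 8.25, 12.3 and 11 CPM with TGFb. TPX2 fell by 3.30 on the log2 scale (SE 0.49, adjusted p = 7e-05) in MDCK-NBL2, its log2 fold change was -1.10 (SE 0.43, adjusted p = 0.075) in MDCK-II, and the difference of -2.20 (SE 0.63, adjusted p = 0.047) passed. DLGAP5, a spindle protein, also passed the test of the difference, at -2.93 (SE 0.82, adjusted p = 0.042), but not without untreated MDCK-NBL2 replicate 3, at -1.79. This limit is not particular to DLGAP5. Of the 49 genes, 3 passed without that library, and 0 without treated MDCK-NBL2 replicate 1 or replicate 2.

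Cytokinesis genes included RACGAP1 and KIF23, which form the centralspindlin complex between the separating chromosomes. RACGAP1 was at 167, 236 and 248 CPM untreated and 103, 95.6 and 109 CPM with TGFb in MDCK-II. MDCK-NBL2 libraries had 153, 60.3 and 249 CPM untreated and 37, 42.4 and 51 CPM with TGFb. Groups did not overlap in either line, and RACGAP1 fell by 1.08 on the log2 scale (SE 0.31, adjusted p = 0.018) and by 1.82 on the log2 scale (SE 0.32, adjusted p = 0.00023). KIF23 was at 84.1, 160 and 164 CPM untreated and 51.3, 57.4 and 75.5 CPM with TGFb in MDCK-II. In MDCK-NBL2 it was at 66.4, 17 and 197 CPM untreated and 4.41, 5.12 and 12.2 CPM with TGFb, lower in every treated library than in any untreated one. KIF23 fell by 3.67 on the log2 scale (SE 0.62, adjusted p = 0.00018) in MDCK-NBL2, with -1.15 (SE 0.53, adjusted p = 0.13) in MDCK-II.

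The anaphase ubiquitin ligase marks securin and cyclin B for destruction, with CDC20 as its activator and UBE2C as its ubiquitin-conjugating enzyme. CDC20 was at 112, 156 and 148 CPM untreated and 65.2, 51.5 and 66.1 CPM with TGFb in MDCK-II. The MDCK-NBL2 levels were 76.5, 14.7 and 199 CPM untreated and 2.11, 5.24 and 10.2 CPM with TGFb. CDC20 fell by 4.01 on the log2 scale (SE 0.66, adjusted p = 0.00015) in MDCK-NBL2, and its log2 fold change was -1.19 (SE 0.55, adjusted p = 0.13) in MDCK-II. UBE2C was at 17.6, 28.7 and 30.2 CPM untreated and 12.6, 15.3 and 18.1 CPM with TGFb in MDCK-II, and these groups overlapped. Levels in MDCK-NBL2 were 23.1, 11.3 and 63.8 CPM untreated and 4.03, 6.94 and 8.12 CPM with TGFb, without overlap, a fall of 2.31 on the log2 scale (SE 0.45, adjusted p = 0.00054).

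HMGB2, a chromatin protein that bends DNA, had the largest response of the 49 in both lines. It was at 112, 161 and 184 CPM untreated and 35.7, 32.7 and 42.4 CPM with TGFb in MDCK-II. The values in MDCK-NBL2 were 128, 16.7 and 206 CPM untreated and 1.73, 1.1 and 4.66 CPM with TGFb. Every treated library was below every untreated one. HMGB2 fell by 2.05 on the log2 scale (SE 0.52, adjusted p = 0.0099) in MDCK-II and by 5.55 on the log2 scale (SE 0.67, adjusted p = 1.5e-05) in MDCK-NBL2, and the difference of -3.51 (SE 0.82, adjusted p = 0.019) passed. The treated MDCK-NBL2 values of HMGB2 rest on 9, 9 and 31 counts. HMGB2 has close paralogs, and how reads shared with them were counted is not given in the sources used here. NCAPD2, a condensin subunit, was at 144, 151 and 152 CPM untreated and 98, 77.3 and 86.7 CPM with TGFb in MDCK-II. Among MDCK-NBL2 libraries the levels were 158, 65.4 and 182 CPM untreated and 34.1, 43.7 and 48.5 CPM with TGFb. NCAPD2 fell by 0.77 on the log2 scale (SE 0.23, adjusted p = 0.024) in MDCK-II and by 1.67 on the log2 scale (SE 0.24, adjusted p = 5.7e-05) in MDCK-NBL2. MKI67, the gene of the proliferation marker Ki-67 that coats mitotic chromosomes, was at 221, 338 and 338 CPM untreated and 122, 120 and 159 CPM with TGFb in MDCK-II. MDCK-NBL2 libraries had 161, 35.3 and 435 CPM untreated and 2.69, 7.43 and 17.3 CPM with TGFb, with a wide spread in the untreated group and no overlap. MKI67 fell by 4.50 on the log2 scale (SE 0.73, adjusted p = 0.00013) in MDCK-NBL2, its log2 fold change was -1.16 (SE 0.61, adjusted p = 0.18) in MDCK-II, and the difference of -3.34 (SE 0.92, adjusted p = 0.039) passed.

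FOXM1, the transcription factor of the list, was at 22.1, 31.8 and 35.4 CPM untreated and 11.2, 11.1 and 16 CPM with TGFb in MDCK-II. In MDCK-NBL2 it was at 17.2, 3.62 and 30.5 CPM untreated and 1.34, 1.95 and 3.31 CPM with TGFb. Treated libraries were lower in both lines without overlap. FOXM1 fell by 2.90 on the log2 scale (SE 0.56, adjusted p = 0.00048) in MDCK-NBL2, with -1.23 (SE 0.45, adjusted p = 0.056) in MDCK-II and -1.23 (SE 0.26, adjusted p = 0.0015) without the discordant library.

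Other mitosis genes were taken from 8 lists, of which 117 genes were tested, and their counts are read beside the share of all genes that fell. With TGFb in MDCK-NBL2, 21 of 26 other kinetochore and centromere genes, 24 of 30 other kinesins and spindle genes and 3 of 3 other condensin subunits fell, where 23.4% of all genes fell, and 0 of these rose. Among them TROAP, a spindle protein, had a log2 fold change of -5.05 (SE 0.73, adjusted p = 6.3e-05). Its mean was 0.477 CPM with TGFb against 17 CPM untreated, so the treated level rests on few counts. Of 8 mitotic entry kinases and phosphatases 7 fell, of 12 DREAM and MYB complex genes 8 fell, and of 8 centriole genes 6 fell. MYBL2, which activates G2 and mitosis genes, fell by 2.45 on the log2 scale (SE 0.38, adjusted p = 9.6e-05). Cohesin and its regulators fell in 7 of 13, with RAD21, the subunit that separase cuts, at -1.43 (SE 0.16, adjusted p = 8.5e-06). Subunits and inhibitors of the anaphase ubiquitin ligase fell in 4 of 17, a share near that of all genes, with a median log2 fold change of -0.13 against -0.04 over all genes. FBXO5, an inhibitor of the ligase, was at -3.60 (SE 0.75, adjusted p = 0.0009). Without the discordant library the MDCK-NBL2 counts were 22, 25, 3, 7, 9, 7, 9 and 7 in the same order of lists, where 27.7% of all genes fell. In MDCK-II the counts that fell were 5 of 26, 6 of 30, 2 of 3, 0 of 8, 4 of 12, 4 of 8, 5 of 13 and 1 of 17 in that order, where 9.27% of all genes fell. Without the discordant library they were 19, 21, 3, 4, 4, 5, 7 and 3, where 14.6% of all genes fell, and WEE1, which holds back CDK1, rose by 0.39 on the log2 scale (adjusted p = 0.049). The difference between the lines passed for 4 of the 30 kinesin and spindle genes and for 0 in the other 7 lists with every library, where 3.18% of all genes had a lower response in MDCK-NBL2. It passed for 15 of 26, 19 of 30, 2 of 3, 3 of 8, 7 of 12, 4 of 8, 5 of 13 and 1 of 17 without the discordant library, where 11.2% did.

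Against day 0, TGFb-treated cells had still lower levels. In MDCK-II 44 of the 49 fell, and 47 without the discordant library, where 18.4% and 21.1% of all genes fell. The median log2 fold change was -1.63, and CDC25B, BUB1, CENPA, CENPE and DLGAP5 did not pass with every library. INCENP fell by 1.02 on the log2 scale (SE 0.2, adjusted p = 0.0012) and MKI67 by 1.82 on the log2 scale (SE 0.62, adjusted p = 0.03). In MDCK-NBL2 all 49 fell in both fits, where 27.1% and 28.0% of all genes fell, with a median of -4.23. HMGB2, at 139, 196 and 201 CPM at day 0, fell by 6.17 on the log2 scale (SE 0.68, adjusted p = 3.1e-06). AURKB, at 53.3, 86.2 and 97 CPM at day 0, fell by 4.87 on the log2 scale (SE 0.55, adjusted p = 3.5e-06). These comparisons share the treated libraries with those above. Without treated MDCK-II replicate 1 or 2, the MDCK-II count was 21 or 20, with median log2 fold changes of -1.57 and -1.52. The share of all genes was not taken in those fits.

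Without TGFb, levels at day 4 were lower than at day 0 by smaller amounts. In MDCK-II the median log2 fold change was -0.50, or -0.30 without day 4 replicate 1, and 48 of the 49 were below 0, yet 0 passed edgeR's quasi-likelihood test, 0 had an unadjusted p under 0.05 and 0 passed DESeq2's Wald test, where 4.05% of all genes fell. With the discordant library left out, 11 had an unadjusted p under 0.05 and SMC4, a condensin subunit, fell by 0.65 on the log2 scale (SE 0.21, adjusted p = 0.042), where 7.86% of all genes fell. Day 4 libraries lay below all day 0 libraries for 36 of the 49, a pattern seen in 22.7% of all genes. MKI67 was at 513, 435 and 465 CPM at day 0, with a log2 fold change of -0.65 (SE 0.61, adjusted p = 0.52). CDK1 was at 115, 110 and 118 CPM at day 0, with a log2 fold change of -0.55 (SE 0.41, adjusted p = 0.41). Day 4 levels were lower in every library for both genes.

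In untreated MDCK-NBL2 at day 4, AURKA, AURKB, INCENP, KIF2C, RACGAP1 and UBE2C fell from day 0, where 5.26% of all genes fell. Without the discordant library only AURKB and UBE2C did, where 5.1% of all genes fell. UBE2C was at 65.3, 105 and 106 CPM at day 0 and at 23.1, 11.3 and 63.8 CPM at day 4. The 2 groups did not overlap, and UBE2C fell by 1.52 on the log2 scale (SE 0.4, adjusted p = 0.017), or by 1.10 on the log2 scale (SE 0.33, adjusted p = 0.034) without that library. AURKB fell by 1.54 on the log2 scale (SE 0.44, adjusted p = 0.023), or by 1.07 on the log2 scale (SE 0.32, adjusted p = 0.034) without that library, although day 4 replicate 3 lay above day 0 replicate 1. Without day 4 replicate 3 the log2 fold change was -2.42 for UBE2C and -2.52 for AURKB. The count depended on single libraries, with 0 called without day 4 replicate 1 and 48 without day 4 replicate 3 (where 17.9% of all genes fell). It was 3, 0 and 0 without day 0 replicates 1, 2 and 3, with median log2 fold changes of -1.08, -0.90 and -0.84. Apart from the fit without day 4 replicate 3, the share of all genes was not taken in these fits. In both lines, replicate 1 of the untreated day 4 group had lower levels than replicate 3 for all 49 genes, with a median of 62.4% in MDCK-II and 42.3% in MDCK-NBL2. The same 2 libraries had the highest levels of the kidney markers CDH16, at 20.2 and 3.09 CPM, and PAX8, at 317 and 348 CPM, whose part in this was not tested. These are 2 of the 5 kidney markers in the table, and the others are not given for these libraries. In MDCK-NBL2 the discordant library was lower still for all 49 genes, without the highest level of either marker.

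At day 0, UBE2C and CDC25B were higher in MDCK-NBL2 than in MDCK-II and 0 of the 49 were lower, where 14.8% of all genes were higher. The share of all genes that were lower was not taken, so the 0 cannot be read as particular to these genes. With the discordant library left out TPX2 and SMC2 were higher too, where 17.0% of all genes were higher. The median log2 difference was 0.12 (MDCK-NBL2 minus MDCK-II). UBE2C was at 46.5, 33.9 and 42.5 CPM in MDCK-II and at 65.3, 105 and 106 CPM in MDCK-NBL2, a log2 difference of 1.17 (SE 0.4, adjusted p = 0.032). CDC25B, a phosphatase that removes the brake on CDK1, was at 68.7, 57.5 and 55.9 CPM in MDCK-II and at 116, 142 and 119 CPM in MDCK-NBL2, a log2 difference of 1.05 (SE 0.25, adjusted p = 0.0031). Neither gene overlapped between the lines, and leaving out one of 5 of the 6 day 0 libraries left 1 call, with no share of all genes taken there. MKI67 had a log2 difference of 0.02 (SE 0.6, adjusted p = 0.99) and CDK1 of -0.09 (SE 0.41, adjusted p = 0.9).

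Levels with TGFb were lower in MDCK-NBL2 than in MDCK-II for 46 of the 49, and for 48 without the discordant library, where 22.3% and 24.8% of all genes were lower. The median log2 difference was -2.45. It was -3.67 (SE 0.6, adjusted p = 7.6e-05) for BUB1B, -2.44 (SE 0.38, adjusted p = 3.9e-05) for KIF2C and -4.23 (SE 0.78, adjusted p = 0.00024) for CCNB2. CDC25B did not pass in either fit, at 44.4, 36.9 and 48 CPM in treated MDCK-II and 36.1, 60.4 and 37.6 CPM in treated MDCK-NBL2, with a log2 difference of 0.06 (SE 0.25, adjusted p = 0.87).

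Among TGFb-treated MDCK-NBL2 cells, siPRRX1 was compared with siCTR. CDC25B, which activates CDK1, was the one mitosis gene that fell with every library included, where 1.19% of all genes fell. It was at 32.8, 49.8 and 41.6 CPM with siCTR and at 10.5, 14.8 and 5.09 CPM with siPRRX1. All 3 siPRRX1 libraries lay below all siCTR libraries, and CDC25B fell by 2.01 on the log2 scale (SE 0.27, adjusted p = 0.0005). It passed under every alternative run, with log2 fold changes from -2.34 to -1.71. Untreated MDCK-NBL2 cells had 126, 98.9 and 133 CPM at day 4, and the discordant library, at the 98.9 CPM of replicate 2, was the lowest of the 3. With TGFb CDC25B fell by 1.41 on the log2 scale (SE 0.25, adjusted p = 0.0003) in MDCK-NBL2, and its log2 fold change was -0.70 (SE 0.25, adjusted p = 0.05) in MDCK-II.

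Without the discordant library, 8 genes fell with siPRRX1, where 3.24% of all genes fell. They were CDC25B, TPX2, DLGAP5, KIF20A, KIF23, PRC1, UBE2C and MKI67, and PRC1, KIF20A and KIF23 act at the spindle midzone in cytokinesis. KIF23 was at 13.7, 6.07 and 7.12 CPM with siCTR and at 2.47, 3.16 and 1.7 CPM with siPRRX1. MKI67 was at 24.2, 7.51 and 8.09 CPM with siCTR and at 2.47, 4.97 and 0.989 CPM with siPRRX1. Neither gene overlapped, and siCTR replicate 1 was the highest library for both. It was the highest siCTR library for 45 of the 49 genes. Replicate 1 of siCTR and of siPRRX1 had 26655390 and 22172939 counts, and the rest of these libraries had 7202327 to 9144704 counts and later library numbers. Replicate number, number series and depth thus cannot be told apart here. The log2 fold change of MKI67 was -2.30 (SE 0.74, adjusted p = 0.13) with every library and -2.33 (SE 0.57, adjusted p = 0.024) without the discordant library. That of KIF23 was -1.92 (SE 0.66, adjusted p = 0.15) and -1.94 (SE 0.48, adjusted p = 0.023). UBE2C was at 12.1, 8.47 and 10.8 CPM with siCTR and at 3.73, 4.74 and 3.96 CPM with siPRRX1, without overlap.

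Over the list the siPRRX1 log2 fold change was below 0 for 46 of the 49, with a median of -0.85 against 0.00 over all genes and of -0.54 without siCTR replicate 1, and the siPRRX1 libraries lay below all siCTR libraries for 27 of the 49, a pattern seen in 16.4% of all genes. Replicate numbers are shared between these groups too, and the labels do not say what they mark. With the replicate as a block only CDC25B fell in the fit of all libraries, where 1.3% of all genes fell. In a blocked fit of these 6 libraries alone 26 of the 44 genes tested fell, where 12.2% of all genes fell. CDK1 was at 14.4, 9.58 and 9.38 CPM with siCTR and at 9.29, 10.8 and 9.61 CPM with siPRRX1, and the groups overlapped. Its log2 fold change was -0.21 (SE 0.46, adjusted p = 0.91). BUB3 was at 75.6, 82.9 and 84.8 CPM and 81, 84.6 and 78.3 CPM, with overlap and a log2 fold change of 0.01 (SE 0.17, adjusted p = 1.0). Of the other mitosis lists, no gene passed with every library. Without the discordant library, 2 of 26 kinetochore genes and 3 of 30 kinesin and spindle genes fell, where 3.24% of all genes fell. Among them was TROAP, by 2.95 on the log2 scale (adjusted p = 0.0021). Its means were only 0.152 CPM with siPRRX1 and 1.14 CPM with siCTR, so this value rests on very few counts. No gene of the other lists fell in that fit. The median log2 fold change was -0.42 for the kinetochore list and -0.4 for the kinesin and spindle list. It was 0.03 for cohesin and its regulators and 0.13 for the DREAM and MYB list, where 9 of 12 genes were above 0.

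**Figure D4:**
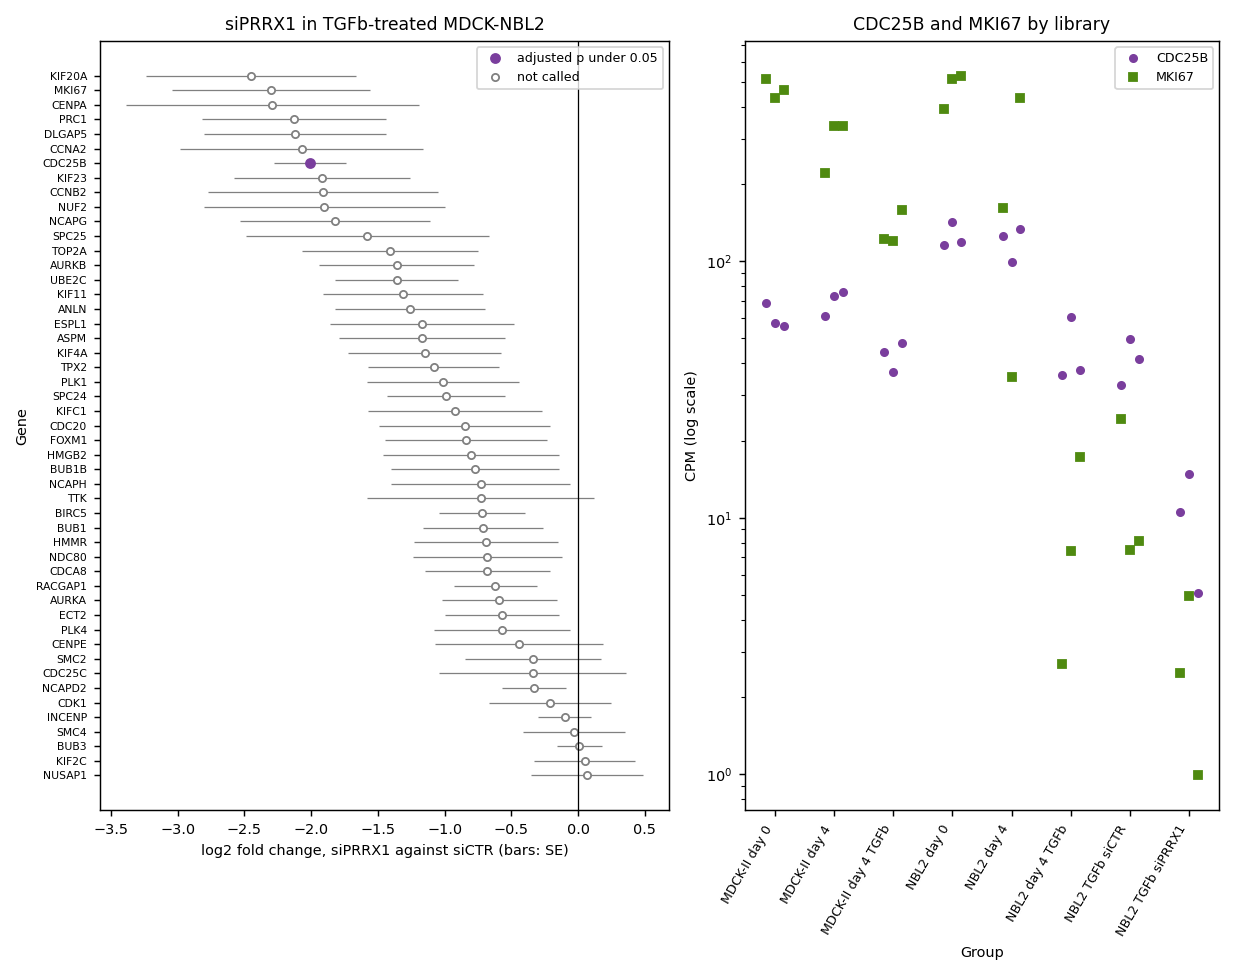
Left, log2 fold change of each of the 49 genes with siPRRX1 against siCTR in TGFb-treated MDCK-NBL2 cells (bars are SE, filled point has an adjusted p under 0.05); right, CPM (log scale) of CDC25B (circles) and MKI67 (squares) in each library by group. CDC25B is the one filled point, at -2.01, and its levels with siPRRX1 are below those of every other group, while MKI67 is already low in all TGFb-treated MDCK-NBL2 groups.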

How the data were processed

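RNA-seq gene counts of 24 libraries in 8 groups of 3 were used as deposited, as whole-number counts per gene in 1 table. The authors named FastQC, RSEM 1.3.0 and STAR 2.5.3a, and CanFam3.1 as the build, per the submitters' processing notes, without role or order. The libraries were stranded mRNA libraries, per the labels' protocols. Not given in the sources used here were the annotation, the strand setting and any rounding of RSEM estimates. Columns were matched to libraries by the labels, and 0 columns belonged to other samples.

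The members and gene lists were chosen with earlier results of these data known. All 24 libraries entered 1 fit in edgeR 4.0.16 (R 4.3.3), in which each group had its own mean (TMM scaling, quasi-likelihood test, 16 residual degrees of freedom). The filter on low counts (filterByExpr, at least 10 counts, total at least 15) kept 12466 genes, and p-values were Benjamini-Hochberg adjusted over all of them. Fold changes use a prior count of 0.125. The biological coefficient of variation was 21.9%. SE is the size of the log2 fold change divided by the square root of its F value. The scripts were tested on simulated data.

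Genes given with values per library are the pair in each role group with the smallest p for any difference among groups, the 3 least like the others, MKI67 and CDK1, and genes called in a comparison by largest change or smallest adjusted p. BUB1, SMC4, NCAPH, TOP2A and the others listed only by name fall outside that rule or were named for a count, after their values were seen. Alternatives were a term for the library number series, a replicate block, fits of the compared groups alone, DESeq2 1.42.0 size factors and its Wald test, all genes unfiltered, and fits with libraries left out. Deviations of same-numbered libraries correlated at 0.47, 0.26 and 0.32 for TGFb in MDCK-II. They correlated at 0.39, 0.20 and 0.22 for siPRRX1, and all were above 0.1. A blocked fit of the compared groups was therefore added as an alternative, while the main fit has no block. MDCK-II with TGFb and untreated MDCK-NBL2 at day 4 also correlated at 0.23, 0.22 and 0.29. The labels do not say whether libraries were paired. Over all pairs of groups 27 of 84 correlations were above 0.1. The highest correlation between 2 libraries was 0.9945 and no 2 were identical. No genome sequence was used.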

Additional observations from a re-analysis of the deposited data

Results flagged for a closer look

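The response to TGFb differed between the lines, by the test of the difference itself, for 8 genes. The difference of log2 fold changes (MDCK-NBL2 minus MDCK-II) was -3.81 for CCNB2, -3.51 for HMGB2, -3.34 for MKI67 and -3.08 for TOP2A, the enzyme that untangles sister chromatids. It was -2.98 for BUB1B, -2.93 for DLGAP5, -2.84 for the condensin subunit NCAPH and -2.20 for TPX2. The untreated MDCK-NBL2 group at day 4 holds the discordant library. Without it the differences were -4.32 for CCNB2, -4.03 for HMGB2, -3.83 for MKI67, -3.59 for TOP2A, -3.48 for BUB1B, -3.42 for DLGAP5, -3.37 for NCAPH and -2.67 for TPX2, and all 8 passed. Other settings weakened the result. Of the 49 genes, 0 passed without treated MDCK-NBL2 replicate 1 or replicate 2, and 0 in a fit of the compared groups alone. Without untreated MDCK-NBL2 day 4 replicate 3, 3 passed, and 4 passed with the library number series as a term. No sample was tested for being an outlier by a critical value, since the groups hold 3 libraries each.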

How the results depend on the processing

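Counts below are members called of 49, and the share of all genes that fell also moved with the setting. For siPRRX1 that share was 1.19% in the main fit and 12.2% in the blocked fit of these groups alone. For TGFb in MDCK-NBL2 it was 23.4% in the main fit and 2.42% with only the groups compared. Where no such share is given, a count cannot be read as particular to these genes. For TGFb in MDCK-II, 8 became 14 with a replicate block, 45 with only the groups compared, 48 with only these groups and a block (chosen after seeing the data), 41 without both libraries that stand apart and 18 by DESeq2's Wald test. For TGFb in MDCK-NBL2, 49 became 2 of 48 tested with only the groups compared. For the difference between the lines, 8 became 5 with a block, 4 with the library number series, 0 with only the groups compared, 46 without both libraries and 29 by DESeq2. For siPRRX1, 1 became 15 and, with a block, 26 of 44 tested with only the groups compared, 10 without both libraries and 7 by DESeq2. For day 4 in untreated MDCK-II, 0 became 2 with only the groups compared and 1 without both libraries. For day 4 in untreated MDCK-NBL2, 6 became 10 with a block, 0 with only the groups compared and 2 without both libraries. For the lines at day 0, 2 became 12 (9 higher) with only the groups compared and 4 without both libraries. The cause was not tested. The block moved no other count by over 1.5 times, and DESeq2's size factors moved none. Dropping the filter on low counts changed only the count for day 4 in untreated MDCK-NBL2, from 6 to 5.

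Leaving out 1 library at a time gave 2 to 41 calls for TGFb in MDCK-II, 49 to 49 in MDCK-NBL2, 0 to 46 for the difference, 1 to 8 for siPRRX1, 0 to 1 and 0 to 48 for day 4 in untreated MDCK-II and MDCK-NBL2, 20 to 47 and 49 to 49 for treated cells against day 0, 1 to 4 for the lines at day 0 and 42 to 48 with TGFb. Of 810 values of named genes, 701 kept direction and call, 86 lost the call, 17 gained it and 6 turned direction, all uncalled. On the log2 scale, CDK1 ran from -0.31 to 0.06 for siPRRX1 (above 0 without siCTR replicate 1) and from -0.21 to 0.06 for the lines at day 0 (above 0 without MDCK-NBL2 day 0 replicate 1, and 0.06 without both libraries). MKI67 for the lines at day 0 ran from -0.05 to 0.15, below 0 at -0.03, -0.03 and -0.05 without MDCK-II replicate 2 and MDCK-NBL2 replicates 2 and 3. Depth limits low values, such as CCNB2 in treated MDCK-NBL2 replicate 1, which rests on 1 count of 6134929.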
